A study of Mus musculus with 19 samples.

Results

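The chromatin around the 7 Fos and Jun genes of the mouse, Fos, Fosb, Fosl1, Fosl2, Jun, Junb and Jund, was described by ATAC-seq, which sequences the places where a transposase can reach the DNA, so that a region with more reads is more accessible. A peak was assigned to a gene if its centre lay in the gene or within 30 kb of either end. This gave 57 of the 90154 peaks, namely 7 at Fos, 10 at Fosb, 10 at Fosl1, 4 at Fosl2, 5 at Jun, 11 at Junb and 10 at Jund, and no peak was assigned to more than 1 of the genes. Only 4 peaks were centred inside one of the genes. Another 20 were centred within 1 kb of a different protein-coding gene, and 13 of these were the start peaks of such genes, so a window is a stretch of chromosome and not the regulatory DNA of 1 gene alone. The genes lie on chromosome 12 (Fos, 85473890 to 85477274), chromosome 7 (Fosb, 19302696 to 19310118), chromosome 19 (Fosl1, 5447698 to 5455938), chromosome 5 (Fosl2, 32136472 to 32157840), chromosome 4 (Jun, 95049036 to 95052222) and chromosome 8 (Junb, 84976909 to 84978748, and Jund, 70697739 to 70700616) of GRCm38. Junb and Jund share a chromosome, but their windows are far apart.

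All 6 groups came from wild-type C57BL/6J embryos, whose neural stem cells were taken from the ventricular zone of single brains at embryonic day 14 and expanded with EGF as floating neurospheres (NSPs, 3 libraries). Differentiation into astrocytes was started by changing to medium with 10% serum and no EGF on coated plates, so attachment, serum and loss of EGF came together, and cells were collected at 24 h (3 libraries), 72 h (3) and 1 week (4). TNF, an inflammatory cytokine, was present at 50 ng/ml in 2 further groups, 24 h with TNF (3) and 72 h with TNF (3), and in no group at 1 week. The labels do not say which libraries of a group came from separate cultures or embryos, so p-values measure the spread between these libraries, which may be technical.

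Reads in peaks ranged from 9640256 to 39349111 per library, and the NSP libraries, at 28636739 or more, were deeper than every other library. NSP replicate 1 stood apart from the other NSP libraries, with a Spearman correlation down to 0.913 against at least 0.940 within every other group. Calls against NSPs at several peaks where it was far from the others are given with and without it. Library names at 72 h, 72 h with TNF and 1 week carry the tag Luc and those of the other groups do not, so in 72 h versus 24 h and in 1 week versus NSPs the tag and the time cannot be told apart. Among markers of the labelled cells, the start peak of Hes5, a Notch target of neural stem cells, fell from 1976 ± 208 in NSPs to 744 ± 134 at 24 h, and that of Gfap, the intermediate filament of astrocytes, rose from 108 ± 68.1 in NSPs to 489 ± 29.4 at 24 h (SD, n = 3 each). Of the 4 astrocyte genes with a start peak, only Gfap was called higher at 24 h and 2 were called lower. These were S100b, from 562 ± 116 to 372 ± 61.0, and Slc1a3, from 251 ± 25.0 to 189 ± 15.5. Aqp4 and Pax6 had no start peak. Start peaks of other cell types were few: 1 of 5 microglial genes (P2ry12, at a mean of 37.9 to 82.6) and 1 of 4 endothelial genes (Kdr, 169 to 252), while 3 of 5 neuronal genes had one, summing to 747 to 902.

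AP-1 is a transcription factor made of a pair of leucine zipper proteins. Proteins of the Jun family pair with themselves or with a Fos protein, whereas Fos proteins need a Jun partner, and the pairs bind the sequence TGANTCA or the related cyclic AMP element TGACGTCA. Fos, Fosb, Jun and Junb are immediate early genes, switched on within minutes by growth factors, serum and cytokines such as TNF through MAP kinases, while Jund is expressed more constantly. AP-1 is known in glia for its part in proliferation and in the response of astrocytes to injury and inflammation.

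The DNA of 3 of the gene starts is shown because Fos and Junb were called at their starts both during differentiation and with TNF, Jun had the most accessible start, and the whole stretch lies inside each start peak. For Fos (chr12:85473640-85473889, plus strand), Jun (chr4:95052223-95052472, minus strand) and Junb (chr8:84978749-84978998, minus strand), the 250 bases before the annotated start are given 5′ to 3′ along the gene, from RefSeq on GRCm38.p6. Capitals mark matches to any of 7 motifs searched on both strands: TGANTCA, TGACGTCA, the Jun elements TGACATCA and TTACCTCA, the shorter TGACGT that is part of TGACGTCA, TATAAA and the CArG box of serum response factor.
Fos: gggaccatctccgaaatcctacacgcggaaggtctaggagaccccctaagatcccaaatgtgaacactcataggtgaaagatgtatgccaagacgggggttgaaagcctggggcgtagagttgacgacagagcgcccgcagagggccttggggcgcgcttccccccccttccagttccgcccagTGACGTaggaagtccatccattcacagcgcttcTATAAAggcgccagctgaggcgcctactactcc
Jun: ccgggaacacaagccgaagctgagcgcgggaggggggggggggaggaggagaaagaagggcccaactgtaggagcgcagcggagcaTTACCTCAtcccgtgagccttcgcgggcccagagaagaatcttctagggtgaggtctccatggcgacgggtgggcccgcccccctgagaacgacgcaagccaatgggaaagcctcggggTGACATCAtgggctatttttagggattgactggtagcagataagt
Junb: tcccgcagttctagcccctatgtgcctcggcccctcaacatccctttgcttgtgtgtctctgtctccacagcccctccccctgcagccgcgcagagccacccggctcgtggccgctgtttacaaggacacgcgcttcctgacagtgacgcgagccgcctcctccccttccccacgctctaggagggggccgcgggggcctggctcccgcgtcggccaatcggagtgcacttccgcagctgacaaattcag
Fos held TGACGT from 66 to 61 bases before the start and TATAAA from 33 to 28. Jun held TTACCTCA from 164 to 157 bases and TGACATCA from 45 to 38 bases before the start. Among 32851 promoter windows of the same length, TGACGT occurred in 6.47%, TATAAA in 12.4%, TTACCTCA in 0.728% and TGACATCA in 2.93%. None of the 7 motifs was found in these letters of Junb, nor in the windows of Fosb, Fosl2 and Jund. TGANTCA, present in 6.75% of all windows, TGACGTCA (1.55%) and the CArG box (1.47%) were in none of the windows of the 6 members with an entry. Bases beyond these 250 were not searched. Fosl1 had no entry. A match is a description of the letters and not evidence of binding.

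Values below are normalised reads per peak, as deposited. A log2 fold change is a difference of group means of log2(value + 1), given ± its standard error, with p from limma-trend adjusted by Benjamini-Hochberg over 88919 peaks, and a peak is called higher or lower at an adjusted p under 0.05. Groups hold 3 libraries, and 4 at 1 week. Comparisons against the same group, such as those of 24 h and 1 week with NSPs, share its libraries and are not independent. All 57 peaks passed the filter on low values. In these bulk libraries, fewer cells open at a site and less opening per cell cannot be told apart.

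The starts of 5 of the 7 genes were less accessible after 24 h of differentiation than in NSPs. Start peaks, defined as the peak closest to the annotated start and within 1 kb of it, existed for 6 genes, and those of Fos, Fosb, Fosl2, Jun and Junb were called lower at 24 h than in NSPs. Fosl1 was the exception, and Jund had no peak so close to its start, its highest peak being centred 1130 bp inside the gene. Over all start peaks in the genome 42.9% were called lower at 24 h and 3.62% higher. Later calls at the 6 starts were fewer. From 24 h to 72 h only Fosb was called higher, where 6.4% of all start peaks were higher and 24.9% lower. From 72 h to 1 week Fosb, Fosl2 and Jun were called higher, where 60.9% of all start peaks were higher and 4.45% lower. At 1 week against NSPs only Fos was called, as lower, where 27.4% of all were lower and 25% higher.

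**Figure D1:**
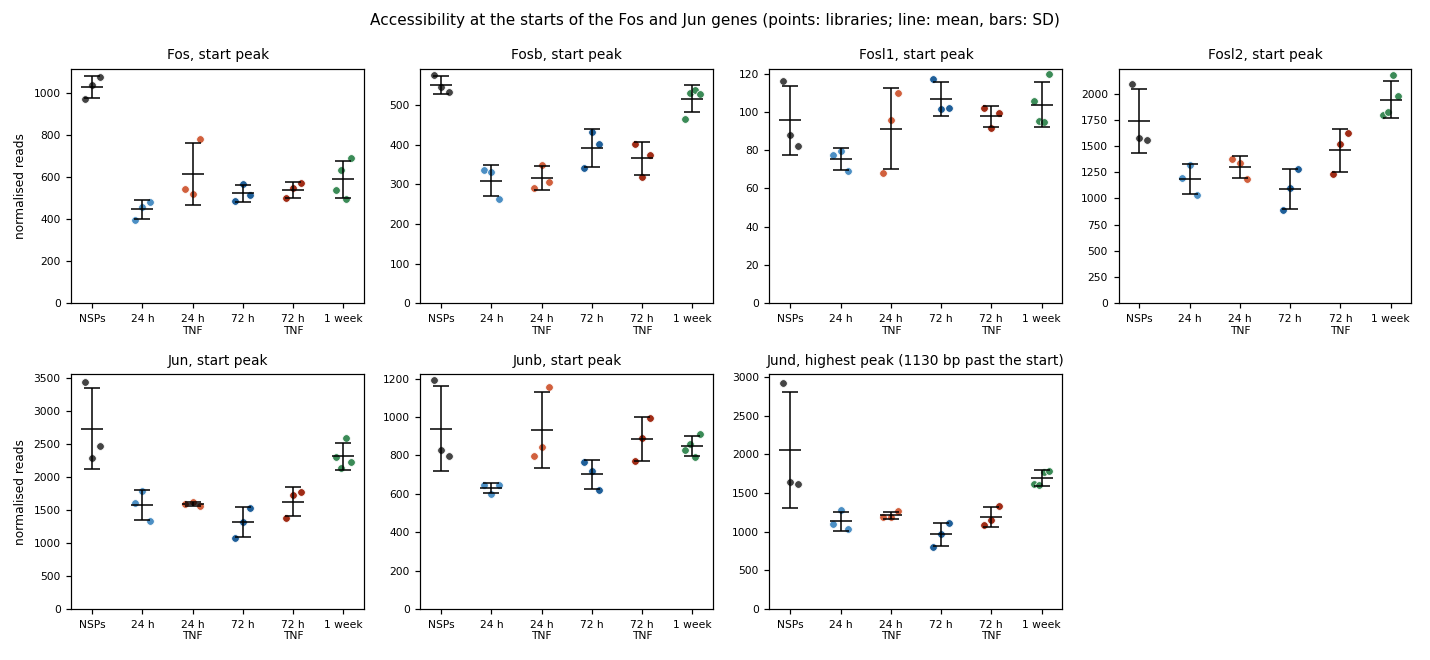
Normalised reads (y axis, from 0) in each library of the 6 groups (x axis) at the start peaks of 6 genes and at the highest peak of Jund; points are libraries, the horizontal line is the group mean and the bars are the SD. At Fos every NSP library lay above every later library, whereas at Fosl2, Jun and Jund the 1 week libraries overlapped those of NSPs.

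Among the Fos family, the start peak of Fos itself had the largest log2 fall at 24 h of the 6 start peaks. Its start peak (chr12:85473582-85474082, centred 58 bp before the start) read 971, 1041 and 1076 in NSPs, 398, 459 and 483 at 24 h, 488, 567 and 517 at 72 h and 540.5, 632, 495 and 691 at 1 week. Every NSP library exceeded every later one, and the later groups had group means of 447 to 615. The log2 fold change at 24 h was -1.21 ± 0.14 (adjusted p = 2.9e-08), a fall that was called under every alternative processing, and at 1 week it was still -0.81 ± 0.13 against NSPs (adjusted p = 2.6e-06). With TNF the 24 h libraries read 545, 518 and 783, all above the untreated ones, for a log2 fold change of 0.44 ± 0.14 (adjusted p = 0.037). That call was lost without 24 h with TNF replicate 3, the highest of them (0.25, adjusted p = 0.33), without 24 h replicate 1 (0.36, adjusted p = 0.18) and without 24 h replicate 2 (0.46, adjusted p = 0.074). At 72 h with TNF the values of 499, 547 and 571 overlapped those without, and the log2 fold change was 0.04 ± 0.14.

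Other peaks of the Fos window moved in both directions. The highest, 18432 bp upstream in the long non-coding RNA gene Gm38543, fell from 2890.4, 1712 and 1844 in NSPs to 1168, 1342 and 1095 at 24 h (-0.80 ± 0.15, adjusted p = 4.4e-05), and was called without NSP replicate 1 too (-0.57, adjusted p = 0.00011). Its lower level at 1 week against NSPs (-0.46 ± 0.14, adjusted p = 0.0037) was not called without that library (-0.23, adjusted p = 0.070). A peak 12214 bp downstream of the start fell from 1199 ± 135 to 679 ± 65.5 (SD, n = 3 each; -0.82 ± 0.11, adjusted p = 9.6e-07), and a peak 14002 bp downstream fell late, from 189 ± 24.1 at 72 h to 134 ± 15.7 at 1 week (SD, n = 3 and 4; -0.50 ± 0.15, adjusted p = 0.009). That later call was lost without 72 h replicate 2 (-0.42, adjusted p = 0.055). In the opposite direction, a small peak 24008 bp downstream (chr12:85497648-85498148) opened. It read 18.1, 16.5 and 9.97 in NSPs, 69.5, 23.6 and 53.0 at 24 h, 83.6, 57.4 and 73.9 at 72 h and 66.1, 79.5, 81.4 and 59.0 at 1 week, with no NSP library reaching any later one. Its log2 fold change was 1.56 ± 0.30 at 24 h and 2.22 ± 0.28 at 1 week against NSPs (adjusted p = 0.0001 and 6.4e-08). The same peak read 71.6, 93.7 and 117 at 24 h with TNF and 137, 117 and 139 at 72 h with TNF, above the untreated libraries of each time. TNF changed it by 1.04 ± 0.30 (adjusted p = 0.024) at 24 h and by 0.87 ± 0.30 (adjusted p = 0.058) at 72 h, so only the first was called, and that call was lost without 24 h replicate 2 (0.60, adjusted p = 0.24), 24 h with TNF replicate 2 (1.03, adjusted p = 0.070) or 24 h with TNF replicate 3 (0.87, adjusted p = 0.14). The remaining Fos call with TNF, at a peak 1683 bp upstream named after its values were seen, went from 420.1, 465 and 464 to 512, 541 and 722 at 24 h (0.38 ± 0.12, adjusted p = 0.041). The value of 722 was that of replicate 3, and calls under the alternatives are not given for this peak.

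Fosb, a close relative of Fos, fell at its start at 24 h and was higher again at 1 week. The start peak (chr7:19310136-19310636, 341 bp before the start) read 577, 545 and 534 in NSPs, 336, 330.4 and 264 at 24 h, 341, 433 and 403 at 72 h and 466, 532, 539 and 529 at 1 week. The fall at 24 h was -0.84 ± 0.13 (adjusted p = 3.7e-06) and the rise from 72 h to 1 week 0.40 ± 0.12 (adjusted p = 0.0091), when its highest library lay within the range of NSPs. The step from 24 h to 72 h was called (0.34 ± 0.13, adjusted p = 0.048) but lost in 6 of 16 alternatives, with 0.23 and an adjusted p of 0.23 without 24 h replicate 3. The rise to 1 week was not called when libraries were scaled by total reads (0.06, adjusted p = 0.70), after loess normalisation (0.08, adjusted p = 0.65), with edgeR (0.29, adjusted p = 0.052) or without 72 h replicate 1 (0.30, adjusted p = 0.080). With and without TNF this start peak overlapped at 24 h (0.03 ± 0.13, adjusted p = 0.93) and at 72 h (-0.10 ± 0.13, adjusted p = 0.68). Of the 10 peaks in the Fosb window, 7 were called lower at 24 h than in NSPs, among them the highest, 10093 bp upstream, which went from 859 ± 143 to 460.3 ± 38.9 (SD, n = 3 each; -0.89 ± 0.13, adjusted p = 1.3e-06). Without NSP replicate 1, its highest NSP library, that fall was -0.76 (adjusted p = 1.5e-06). A peak 17268 bp upstream fell to 179.9, 190.3 and 113 at 24 h and stood at 296, 292 and 275 at 72 h (0.87 ± 0.15, adjusted p = 0.00014).

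At the far end of its window, a peak of Fosb rose in the first 24 h, again from 72 h to 1 week, and with TNF. It lay 28689 bp upstream (chr7:19338484-19338984), not centred in any annotated gene, and read 28.0, 28.7 and 29.9 in NSPs, 91.1, 112 and 129 at 24 h, 144, 129 and 115 at 72 h and 343, 352, 394 and 345 at 1 week. All NSP libraries lay below every later library, and the log2 fold change at 1 week was 3.59 ± 0.15 (adjusted p = 1.5e-18), a 12.0-fold difference. From 24 h to 72 h the libraries overlapped and no change was called (0.23 ± 0.16, adjusted p = 0.3). With TNF it read 242, 217 and 187 at 24 h and 395, 313 and 356 at 72 h, so that 72 h with TNF overlapped 1 week without it. TNF raised it by 0.96 ± 0.16 (adjusted p = 0.00013) at 24 h and by 1.45 ± 0.16 (adjusted p = 3.5e-07) at 72 h.

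Fosl1 encodes Fra-1, a Fos protein without the transactivation domain of Fos. Its start was the least accessible of the 6, at 116, 88.1 and 82.4 in NSPs, 77.4, 79.7 and 69.0 at 24 h, 117, 102 and 102 at 72 h and 106, 95.1, 94.6 and 120.1 at 1 week, and it was called in none of the comparisons. The reference used here gives no strand for Fosl1, so this is the peak closest to either end (chr19:5447522-5448022) and other distances are from the lower or upper end of the gene. The highest peak of the window, 22773 bp before the lower end, lay within 1 kb of Drap1 and AI837181 and is the start peak of both. It read 1567, 869.6 and 928 in NSPs and 819, 853 and 697 at 24 h, and its fall (-0.46 ± 0.14, adjusted p = 0.01) was lost in 5 of 16 alternatives, among them the one without NSP replicate 1 (-0.19, adjusted p = 0.15).

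Away from the gene, 2 peaks of the Fosl1 window gained accessibility as the cells differentiated. The first, 17734 bp before the lower end and in no annotated gene (chr19:5429714-5430214), read 211, 183 and 207 in NSPs, 337, 406 and 397 at 24 h, 601, 571 and 566 at 72 h and 936, 899, 981 and 882 at 1 week. No libraries of successive groups overlapped, and it was called higher at each step, by 0.92 ± 0.11 (adjusted p = 3.5e-08), 0.61 ± 0.11 (adjusted p = 0.0001) and 0.67 ± 0.10 (adjusted p = 7.4e-06). With TNF it reached 836, 807 and 826 at 24 h and 1035, 959 and 1104 at 72 h, a rise of 1.12 ± 0.11 (adjusted p = 2.7e-08) and 0.83 ± 0.11 (adjusted p = 3.4e-06), and it was the only one of the 57 peaks called higher in all 6 comparisons of groups. The second, 3287 bp after the upper end (chr19:5458975-5459475), rose mainly between 24 h and 72 h, from 124.1, 115 and 132 to 284, 215 and 296 (1.08 ± 0.15, adjusted p = 4.9e-06), and read 97.0, 90.4 and 89.7 in NSPs and 229, 224.4, 257 and 225 at 1 week. Its rise at 24 h against NSPs (0.42 ± 0.15, adjusted p = 0.023) was lost in 5 of 16 alternatives, with adjusted p up to 0.11. It was also the only peak of the 57 called lower with TNF. At 72 h with TNF it read 194, 186 and 185, all below the untreated libraries (-0.48 ± 0.15, adjusted p = 0.033), while at 24 h the groups overlapped (0.09 ± 0.15). That call was lost in 6 of 16 alternatives, in which adjusted p ranged up to 0.16. The second Fosl1 call with TNF at 24 h, at a peak 13976 bp before the lower end that was named after its values were seen, went from 60.3, 63.4 and 59.1 to 95.5, 81.9 and 117 (0.66 ± 0.21, adjusted p = 0.037).

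**Figure D2:**
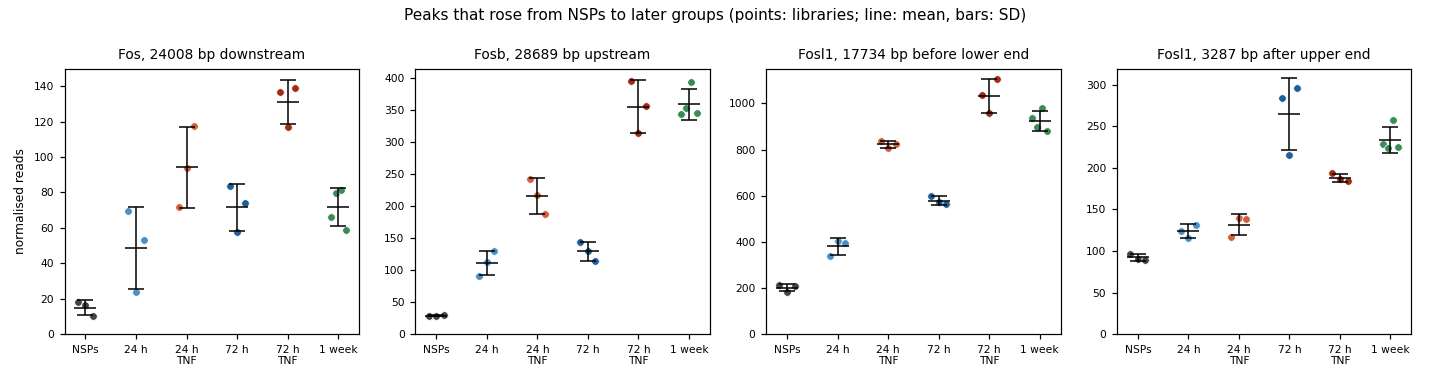
Normalised reads (y axis, from 0) in each library of the 6 groups (x axis) at 4 peaks of the Fos, Fosb and Fosl1 windows that rose after the NSP stage; points are libraries, the line is the mean and the bars are the SD. At the Fosb peak the 72 h with TNF libraries reach the level of 1 week, and at the Fosl1 peak before the gene the treated libraries lie above the untreated ones at both times.

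Fosl2, which encodes Fra-2, had, after Jun, the most accessible start peak. The start peak (chr5:32135565-32136065, 657 bp before the start) read 2095, 1575 and 1555 in NSPs, 1193, 1322 and 1037 at 24 h, 889, 1102 and 1277 at 72 h and 1793, 1823, 2174 and 1979 at 1 week. The fall at 24 h was -0.55 ± 0.13 (adjusted p = 0.0014), or -0.41 without NSP replicate 1 (adjusted p = 0.0064), and the rise from 72 h to 1 week 0.85 ± 0.13 (adjusted p = 8.8e-06), the latter shrinking to 0.20 (adjusted p = 0.059) after loess normalisation. At 72 h with TNF it read 1232, 1522 and 1621, overlapping the untreated libraries, and although the difference was called (0.43 ± 0.13, adjusted p = 0.036) it was lost in 6 of 16 alternatives, with 0.29 and an adjusted p of 0.25 without 72 h replicate 1. A peak 3192 bp upstream fell from 198 to 254 in NSPs to 93.5 to 130.1 at 1 week (-0.94 ± 0.16, adjusted p = 9.5e-06), and a low peak 7097 bp inside the gene rose from 19.3 to 21.3 to 59.2 to 85.8 (1.70 ± 0.28, adjusted p = 5.5e-06). This pair was chosen after their values were seen.

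In the Jun family, the start peak of Jun fell and rose again, while 3 peaks downstream of it were lower at 1 week than in NSPs. The start peak (chr4:95052040-95052540, 68 bp before the start), the highest of the Jun window, read 3439, 2289 and 2473 in NSPs, 1612, 1789 and 1339 at 24 h, 1083, 1323 and 1538 at 72 h and 2303, 2131, 2597 and 2223 at 1 week. NSP replicate 1 was the highest, and the other NSP libraries overlapped those of 1 week. Its log2 fold change was -0.78 ± 0.14 (adjusted p = 3.8e-05) at 24 h against NSPs, called under every alternative including the one without NSP replicate 1 (-0.60, adjusted p = 9.4e-05), and 0.83 ± 0.13 (adjusted p = 1.8e-05) from 72 h to 1 week, which fell to 0.13 (adjusted p = 0.22) after loess normalisation. With TNF the Jun start differed by 0.03 ± 0.14 (adjusted p = 0.95) at 24 h and 0.31 ± 0.14 (adjusted p = 0.16) at 72 h, neither of them called.

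The 3 peaks downstream of Jun differed in when they fell. The one 14036 bp downstream of the start (chr4:95037936-95038436) read 474, 694 and 729 in NSPs, 311, 283 and 265 at 24 h, 165, 106 and 129 at 72 h and 189.6, 186, 207 and 254 at 1 week, lowest at 72 h. It fell at both early steps (-1.12 ± 0.17, adjusted p = 3.2e-06 and -1.12 ± 0.17, adjusted p = 1.9e-05) and rose from 72 h to 1 week (0.66 ± 0.16, adjusted p = 0.0017), a rise not called when libraries were scaled by total reads (0.32, adjusted p = 0.12). Without NSP replicate 1, its lowest NSP library, the fall at 24 h was -1.31 (adjusted p = 3.1e-09). The peak 26125 bp downstream (chr4:95025847-95026347) fell from 197, 305 and 348 in NSPs to 134, 156 and 155 at 24 h and 73.2, 80.3, 68.2 and 70.8 at 1 week, and every 1 week library was below every other library of the series. Its log2 fold change at 1 week against NSPs was -1.90 ± 0.19 (adjusted p = 3.7e-10), or -2.14 without NSP replicate 1 (adjusted p = 4.3e-14). The peak 28515 bp downstream read 141, 204 and 231 in NSPs, 142, 181 and 181 at 24 h, 122, 103 and 98.1 at 72 h and 107, 89.6, 108 and 102 at 1 week, overlapping at first and falling between 24 h and 72 h (-0.64 ± 0.18, adjusted p = 0.0085). In none of the 5 peaks of the Jun window was a change with TNF called at either time.

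Junb, a Jun protein of weaker transactivation, held more peaks called with TNF than any of the other 6 genes. Its start peak (chr8:84978529-84979029, 31 bp before the start) read 1193, 827 and 797 in NSPs, 647, 600.4 and 648 at 24 h, 766, 719 and 619 at 72 h and 828, 858, 794 and 914 at 1 week. The fall at 24 h was -0.55 ± 0.14 (adjusted p = 0.0022), or -0.36 without NSP replicate 1, the highest library (adjusted p = 0.015), and after loess normalisation it stood at -0.32 with an adjusted p of 0.0505. The highest peak of the window, 2119 bp downstream of the start and 280 bp past the end of this short gene (chr8:84976379-84976879), fell likewise from 1016, 1158 and 1175 to 717, 808 and 796 (-0.53 ± 0.11, adjusted p = 0.00017). By contrast the peak 1325 bp upstream (chr8:84979823-84980323) read 256, 344 and 276 in NSPs and 287, 266 and 209 at 24 h, with overlapping libraries (-0.20 ± 0.14).

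TNF raised 3 peaks near Junb at both times. The peak 1325 bp upstream read 555, 572 and 586 at 24 h with TNF, all above the untreated libraries, and 706, 652 and 672 at 72 h with TNF against 297, 374 and 317 without. The log2 fold changes were 1.18 ± 0.14 (adjusted p = 7.6e-07) and 1.04 ± 0.14 (adjusted p = 5e-06). Further out, the peak 2456 bp upstream (chr8:84980954-84981454) read 455, 485 and 543 with TNF against 142, 178 and 230.3 without at 24 h, and 399, 338 and 353 against 139, 141 and 154 at 72 h. Its rises, 1.45 ± 0.18 (adjusted p = 1.6e-06) and 1.32 ± 0.18 (adjusted p = 6.3e-06), were 2.73-fold and 2.5-fold, the highest at both times among the Junb peaks, and the treated libraries lay above all those of NSPs and of 1 week. Without TNF this peak fell from 72 h to 97.0, 70.9, 112 and 89.0 at 1 week (-0.66 ± 0.16, adjusted p = 0.0022).

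The peak past the end of Junb read 1418, 1336 and 1509 at 24 h with TNF and 1148, 1312 and 1324 at 72 h with TNF, changes of 0.88 ± 0.11 (adjusted p = 1.6e-06) and 0.75 ± 0.11 (adjusted p = 1.8e-05) against the untreated libraries. At the start itself the treated libraries read 797, 844 and 1158 at 24 h (0.54 ± 0.14, adjusted p = 0.011) and 771, 893 and 996 at 72 h (0.34 ± 0.14, adjusted p = 0.13), above the untreated libraries at both times but called only at 24 h. The call at 24 h was lost without 24 h with TNF replicate 3, the highest library (0.38, adjusted p = 0.14), and without 24 h replicate 2 (0.51, adjusted p = 0.053). A peak 7064 bp upstream, named after its values were seen, read 141, 92.7 and 165 with TNF and 61.5, 87.0 and 54.2 without at 24 h (0.95 ± 0.22, adjusted p = 0.004). These 5 peaks are the only ones of the Junb window with no other protein-coding gene within 1 kb. The other 6, near Rtbdn, Rnaseh2a, Prdx2 and Hook2, showed no call with TNF at either time.

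**Figure D3:**
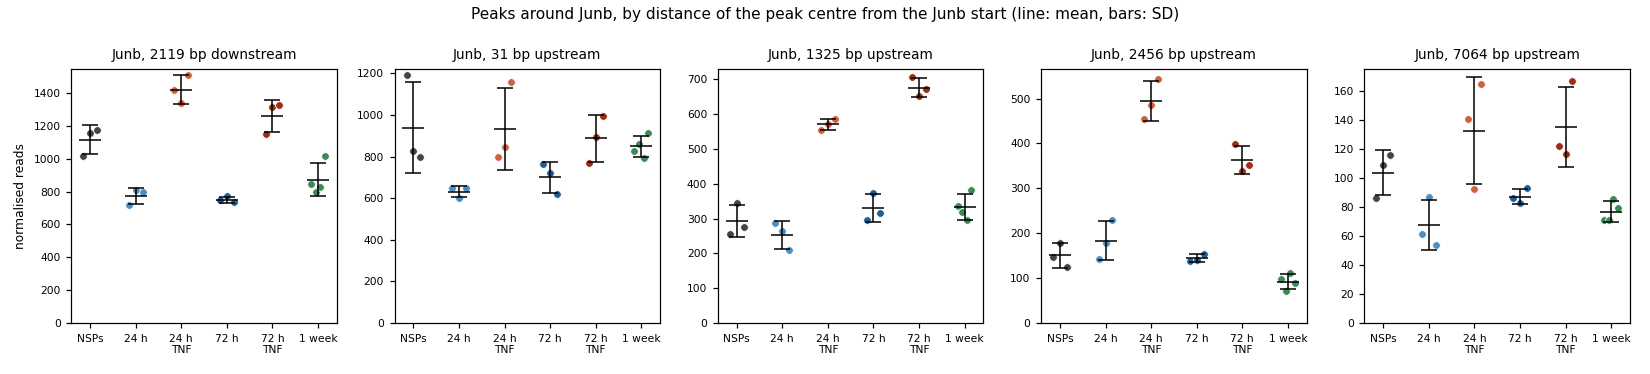
Normalised reads (y axis, from 0) in each library of the 6 groups (x axis) at 5 peaks around Junb, ordered from downstream to upstream of the Junb start; points are libraries, the line is the mean and the bars are the SD. At each of the 5 peaks every library with TNF lies above every untreated library of its time. Only those at 1325 bp and 2456 bp upstream and at 2119 bp downstream were called with TNF at both times.

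Jund, the member with the most constant expression, had its highest peak inside the gene (chr8:70698619-70699119). It read 2931, 1649.7 and 1613 in NSPs, 1099, 1276 and 1036 at 24 h, 807, 977 and 1110.2 at 72 h and 1614, 1604, 1776 and 1785 at 1 week, with NSP replicate 1 far above the others. The fall at 24 h was -0.81 ± 0.15 (adjusted p = 7.7e-05) and was called without that library too (-0.53, adjusted p = 0.00019), and the rise from 72 h to 1 week was 0.82 ± 0.14 (adjusted p = 5.7e-05), or 0.20 (adjusted p = 0.17) after loess normalisation. A peak 12825 bp downstream of the start, inside Iqcn, fell from 104, 153 and 119 at 24 h to 59.2, 68.2 and 77.8 at 72 h (-0.86 ± 0.23, adjusted p = 0.0061). With TNF 1 of the 10 peaks was called, 5198 bp downstream of the start and at the start of Iqcn, reading 521, 545 and 549 against 380.3, 437 and 351 at 24 h (0.47 ± 0.12, adjusted p = 0.0087), and this peak was named after its values were seen.

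Over the 57 peaks, falls outnumbered rises in the first day of differentiation. At 24 h against NSPs 31 peaks were called lower, where 23% of all tested peaks were, and 5 were called higher, against 24.2% of all. The 5 were the Fos peak 24008 bp downstream, the Fosb peak 28689 bp upstream, the Fosl1 peaks 17734 bp before and 3287 bp after the gene and the Fosl2 peak 7097 bp inside it. The median log2 fold change of the 57 was -0.45, beside -0.07 over all peaks and -0.30 over all start peaks. The peaks called lower were 4 of 7 at Fos, 7 of 10 at Fosb, 4 of 10 at Fosl1, 2 of 4 at Fosl2, 4 of 5 at Jun, 6 of 11 at Junb and 4 of 10 at Jund. Of the 37 peaks with no other protein-coding gene within 1 kb, 21 were called lower and 5 higher. Scaling libraries by total reads moved the median of all peaks from -0.07 to 0.11 and left 23 of the 57 lower and 7 higher, and with loess normalisation 24 were lower and 6 higher. The start peak of the NSP marker Hes5 was called lower at the same step (-1.42 ± 0.16, adjusted p = 2.1e-08), and its part in the result was not tested.

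Between 24 h and 72 h, 11 of the 57 peaks were called higher (12% of all peaks) and 3 lower (14.3%). The 3 that fell were the Jun peaks 14036 bp and 28515 bp downstream and the Jund peak in Iqcn. The peaks that rose were 1 at Fos, 3 at Fosb, 3 at Fosl1 and 4 at Junb, and without 72 h replicate 2 the count of rises was 7. The library name tag changes at this step.

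From 72 h to 1 week, 20 peaks were called higher, where 22.5% of all peaks and 60.9% of all start peaks were, and 4 were called lower (16.2% of all peaks), 1 each at Fos, Jun, Junb and Jund, with a median of 0.18 beside 0.02 over all peaks. The balance of rises and falls depended on the scaling. With libraries scaled by total reads, which moved the median of all peaks to -0.31, 6 were higher and 14 lower and the median of the 57 was -0.16. With loess normalisation 5 were higher and 9 lower, with a median of -0.07. The rises that were called under each of these scalings included the Fosb peak 28689 bp upstream (range over 17 alternatives 1.13 to 1.55) and the Fosl1 peak 17734 bp before the gene (0.25 to 0.70). Falls at the Jun peak 26125 bp downstream (-1.05 to -0.57) and at the Junb peak 2456 bp upstream (-1.002 to -0.543) were likewise called under every alternative. At 1 week against NSPs, 12 peaks were higher (33.7% of all peaks) and 17 lower (33.6%), including 5 of the 7 Fos peaks and 3 of the 5 Jun peaks among those lower. Over all 6 groups, 26 of the 57 peaks had their highest mean in NSPs and 15 at 1 week. The lowest mean was at 24 h for 25 peaks. Highest and lowest groups were not counted over all peaks, so these numbers describe the 57 only. The falls at 24 h and the rises from 72 h to 1 week were called at 13 peaks in common. No such joint count was made over all peaks, and the rises in it depend on the scaling.

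TNF at 24 h raised 12 of the 57 peaks and lowered 0, where 7.06% of all peaks were called higher and 3.53% lower. By limma-trend 0 of the 57 were lower at an unadjusted p under 0.05, a cut at which all peaks were not counted. With edgeR and DESeq2, 0 were called lower. The 12 were 5 of 11 at Junb, 3 of 7 at Fos, 2 of 10 at Fosl1, 1 of 10 at Fosb and 1 of 10 at Jund, and none at Jun or Fosl2. The median over the 57 was 0.17, beside -0.03 over all peaks. Of the 37 peaks away from other genes 11 were called. Among start peaks, where 1.15% of all were called higher and 0.477% lower, Fos and Junb were 2 of 6. Without 24 h with TNF replicate 3 the count was 6 and without 24 h replicate 2 it was 7. Of the 6, 5 were the peaks called with TNF at both times. For the peaks named after their values were seen, calls under the alternatives are not given.

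At 72 h TNF raised 6 peaks, 3 at Junb and 1 each at Fosb, Fosl1 and Fosl2, and lowered 1 at Fosl1, against 6.24% higher and 5.55% lower among all peaks. The median over the 57 was 0.09, beside 0.03. Fosl2 was the 1 start peak called, where 2.89% of all start peaks were higher and 0.715% lower. The count of rises was 10 when only the groups compared entered the fit and 12 without NSP replicate 1, a library that enters only through the shared estimate of the spread. The comparisons at 24 h and 72 h share no library. Called higher at both times were 5 peaks, a count that was not made over all peaks. They were Junb at 2119 bp downstream, 1325 bp upstream and 2456 bp upstream, Fosb at 28689 bp upstream and Fosl1 at 17734 bp before the gene. These 10 calls held under every alternative.

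**Figure D4:**
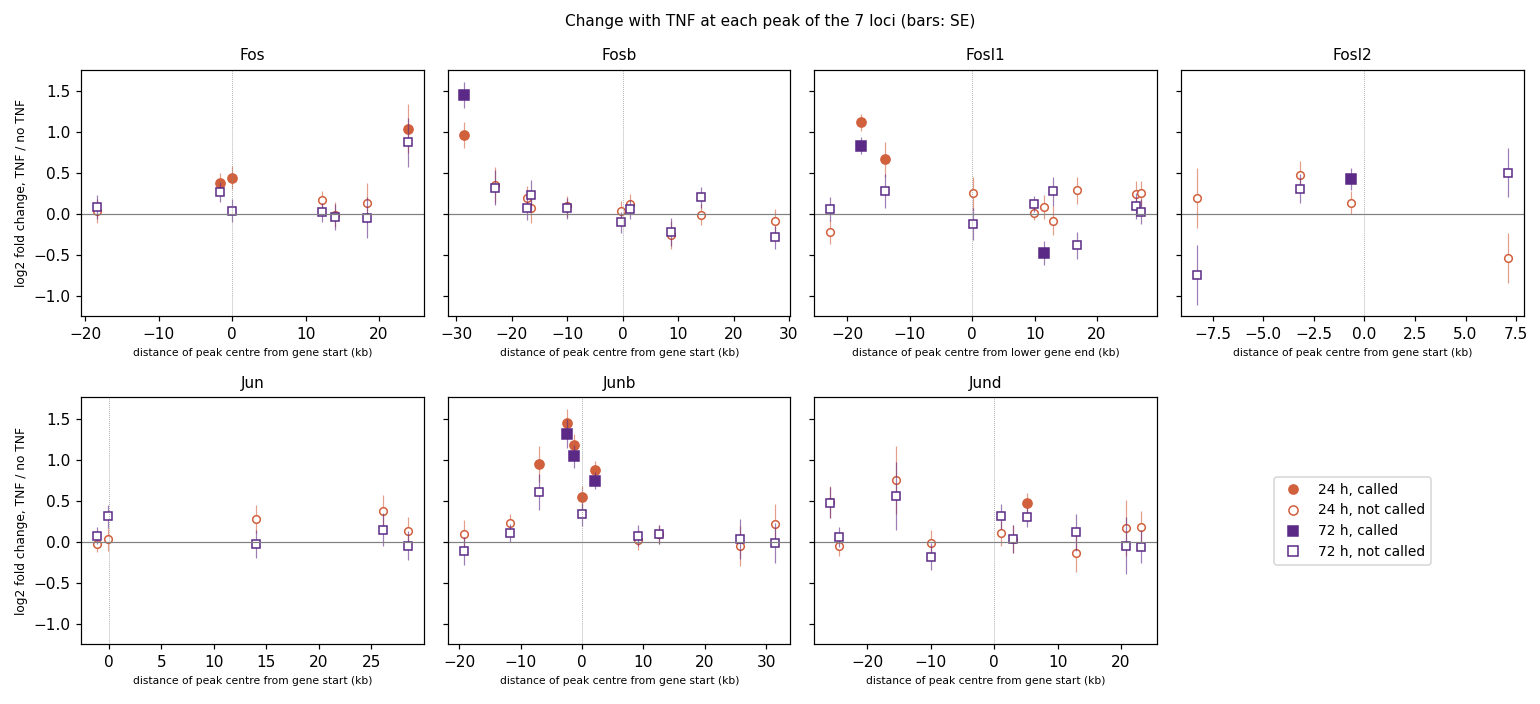
Log2 fold change with TNF against no TNF (y axis) at every peak of the 7 loci, by the distance of its centre from the gene start in kb (x axis; for Fosl1 from the lower end of the gene); circles are 24 h, squares 72 h, filled symbols are called at an adjusted p under 0.05 and bars are the standard error. Called peaks of Junb lie within 8 kb of its start, while that of Fosb stands at the far end of its window and no peak of Jun is called.

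Whether TNF acted differently at the 2 times was tested by an interaction. Library names at 72 h carry the tag Luc and those at 24 h do not, so in this contrast too the tag and the time cannot be told apart. No peak of the 57 was called, and over all peaks limma-trend called 0% higher and 0.00112% lower. At an unadjusted p under 0.05 the difference was positive at 2 of the 57. These were the Fosb peak 28689 bp upstream and the Fosl2 peak 7097 bp inside the gene. It was negative at 3, the Fos start and the Fosl1 peaks 3287 bp and 8536 bp after the gene. The share of all peaks under that unadjusted p was not counted, so these peaks stand without a comparison. With edgeR and DESeq2, 0 of the 57 were called. For the Fos start, called at 24 h and not at 72 h, the difference was -0.40 ± 0.20 (adjusted p = 0.67), for the Junb start -0.21 ± 0.20 (adjusted p = 0.85) and for the Fosb upstream peak 0.49 ± 0.23 (adjusted p = 0.65). The summed start peaks of the astrocyte markers had lower means with TNF, at 727 against 1121 at 72 h and 944 against 1141 at 24 h, with 2 of 4 called at 72 h, Gfap among them, and 0 of 4 at 24 h, and the part of this in the changes at the 57 peaks was not tested.

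Genes that act with AP-1 were counted by the same 30 kb rule, and their counts stand beside the same shares of all peaks given above. Partners that pair with Jun or Fos proteins (Atf2, Atf3, Atf4, Atf7, Batf, Batf2, Batf3 and Jdp2) had 55 tested peaks, of which TNF raised 2 and lowered 1 at 24 h and raised 1 and lowered 3 at 72 h, with medians of -0.01 and 0.05. A peak near Batf3 rose by 1.09 ± 0.18 at 24 h (adjusted p = 0.00010) and one near Jdp2, a repressor of AP-1 that neighbours Fos, by 0.43 ± 0.13 at 24 h (adjusted p = 0.026) and 0.45 ± 0.13 at 72 h (adjusted p = 0.019).

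Textbook AP-1 targets (Ccnd1, Plaur, Plau, Timp1, Mmp3, Mmp9, Mmp13, Il6, Ccl2, Cd44, Vim, Hmox1, Spp1, Dusp1 and Lif) had 90 peaks. TNF raised 13 and lowered 1 at 24 h, and raised 10 and lowered 2 at 72 h, with medians of 0.17 and 0.16. The 30 kb window of Ccl2, a chemokine that NF-κB also controls, held the peaks of smallest p. The largest rise there at 24 h among those peaks, 3.18 ± 0.26 (adjusted p = 2.5e-09), was at chr11:82006705-82007205 and not at the Ccl2 start peak. A peak near Dusp1, a phosphatase of MAP kinases, rose by 1.88 ± 0.35 at 24 h (adjusted p = 0.00046). None of the start peaks of partners and targets was called with TNF at 24 h, and at 72 h those of Vim (0.33 ± 0.11, adjusted p = 0.046) and Ccl2 (0.36 ± 0.12, adjusted p = 0.046) were. At 24 h against NSPs, 4 of the 9 start peaks of targets were called lower, or 44.4% beside 42.9% of all start peaks, among them those of Ccnd1, the cyclin of G1 phase (-1.50 ± 0.17, adjusted p = 2.7e-08), and Dusp1 (-1.20 ± 0.17, adjusted p = 1.6e-06). Over their windows at that step, 7 peaks of partners were higher and 12 lower and 19 of targets higher and 17 lower.

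The genes whose start peaks most resembled each member over the 19 libraries were found by Pearson correlation of log2 values, which is a description that shares groups and depth. For Fos they were Egr3 (0.91) and Egr2 (0.90), which encode zinc finger transcription factors. For Jun they were Fbxo5 (0.98) and Ddit4 (0.98), for Fosl2 Spryd7 (0.96) and Dgat1 (0.96), for Fosb Rsl1d1 (0.95) and Srl (0.94), for Junb Trpm3 (0.85) and Tec (0.77), and for Fosl1 Nacc2 (0.83) and Plch1 (0.78). Among the members themselves, Fosl2 and Jun were most alike (0.91) and Fosl1 and Jun least (0.14).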

How the data were processed

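ATAC-seq of 19 libraries in 6 groups, assigned by sample titles, was analysed. Per the methods and labels, Trim Galore was used by the authors for trimming, Bowtie2 for alignment to mm10 and MACS2 for peaks, and blacklisted regions were taken out. Duplicate treatment, read shift and the scaling of the table are not given in the sources used here. The deposited table holds a normalised signal per peak and library, and 100% of values were whole multiples of 1 read (tolerance 0.001). Peaks were tested with limma-trend (limma 3.58.1, R 4.3.3) on log2(value + 1) over all libraries, after a filter at 10 reads that kept 88919 peaks and left out 1235, for 7 contrasts. The log2 scale understates changes of low peaks. edgeR 4.0.16 and DESeq2 1.42.0 on recovered reads, other scalings, pseudocounts, filters, blocks and leaving out libraries were alternatives. On simulated reads for 24 h with TNF versus 24 h (88919 peaks), 100% of 4-fold and 68% to 76% of 2-fold changes were called. Peaks with few reads at 24 h were not among those changed. All libraries were drawn from 24 h means with 1 common spread, so these rates may not hold for low peaks or for the real spread.

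Named peaks were each start peak, the highest peak of each window and, per comparison and direction, the 3 called peaks of smallest p; exceptions are stated. From the lists at most 4 called genes were named by p. Members and lists were chosen with earlier results of these data known. Gene ends came from RefSeq GRCm38.p6, the same assembly as mm10. No genome sequence was used, so peaks were not assigned to exons, introns or UTRs. Some list and marker results are not reported here.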

Additional observations from a re-analysis of the deposited data

Results flagged for a closer look

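In the 1 week group, the only one with 4 libraries, 3 of 24 named peaks had a library set apart from the other 3, judged by its gap to the nearest divided by the whole range against Dixon's critical value. At the Fosb start, replicate 1 read 466 beside 529 to 539 (0.855). At the Fosb peak 10093 bp upstream, replicate 3 read 502 beside 635 to 657 (0.857), and at the Fosl1 peak 3287 bp after the gene, replicate 3 read 257 beside 224.4 to 229 (0.855). Chance flags about 1 in 20 such groups, and replicate 3 was the shallowest library, with 9640256 reads in peaks.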

How the results depend on the processing

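Of 406 alternative counts, 385 stayed within 1.5 times the reported count. At 24 h against NSPs, rises numbered 3 with only the groups compared. From 72 h to 1 week, rises numbered 6 with total-read scaling and 5 with loess, and falls 14, 9 and, with edgeR, 7. For TNF at 72 h, rises numbered 10 and falls 2 with only the groups compared. Falls numbered 0 with a replicate block by the number in the library names, whose meaning the labels do not give. Leaving out 1 library at a time, rises and falls ranged from 3 to 6 and 28 to 32 (24 h against NSPs), 7 to 15 and 3 to 4 (72 h against 24 h), 15 to 23 and 3 to 7 (1 week against 72 h), 9 to 13 and 15 to 21 (1 week against NSPs), 6 to 14 and 0 to 0 (TNF at 24 h), 5 to 12 and 0 to 2 (TNF at 72 h) and 0 to 0 for the interaction. The low ends were reached without 24 h replicate 3 (3 rises at 24 h) and 72 h replicate 2 (7 rises at 72 h), and the 7 falls at 1 week without NSP replicate 1. For TNF at 72 h, leaving out that library gave 12 rises and 2 falls, and leaving out 72 h replicate 1 or 3 or any library of 72 h with TNF gave 0 falls. Of 1132 alternative values for 69 calls at named peaks, 1062 kept direction and call, 66 kept direction only and 4 reversed: from 72 h to 1 week, the Fos peak 12214 bp downstream (-0.0255 with total-read scaling, -0.18 with loess) and the Fosb peak 10093 bp upstream (-0.0396 and -0.11). The cause was not tested. Deviations of same-numbered libraries from their group means had correlations of -0.04 to 0.11 over peaks. Differently numbered libraries were not compared, so whether the numbers pair samples cannot be told from this. With a replicate block by title number, TNF raised 11 peaks at 24 h and 5 at 72 h. The numbers in titles and library names differ at 72 h with TNF. Low peaks limit precision: 13 of the 57 had means under 100, and the fewest reads at a peak in a library were 4.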
